A study of Mus musculus with 9 samples.

Results

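The testis takes apart the histone packaging of the spermatid genome with a small set of chromatin enzymes, and 9 genes for such enzymes and their partners were followed here: Rnf8, Phf7, Chd5, Kat5, Kat8, Epc1, Ep400, Kdm3a and Cdyl. The members were the rows whose gene symbol was 1 of these 9 names. Of the 9 names, 8 had a row among 38685, and 7 passed the filter on low reads, which left 14893 rows for testing. Rnf8 was not analysed here, and Kat5 had too few reads to be tested. Testis RNA was compared among C57BL/6 males that were wildtype (Prm2+/+), heterozygous (Prm2+/-) or deficient (Prm2-/-) for protamine 2, with 3 libraries for each genotype. The age of the males is not given in the labels. The Prm2 deficiency was made by CRISPR/Cas9 editing in oocytes and is carried by every cell of the animal, so no cell type was targeted. The study speaks of Prm2-deficient lines in the plural, and which line gave these libraries is not given in the sources used here. No group received a treatment, and all 9 samples shared strain, sex and tissue, the tissue being whole testis without its tunica albuginea. In such a bulk sample, fewer cells of a type and less RNA per cell cannot be told apart.

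In elongating spermatids most histones are removed, transition proteins take their place, and protamines finally compact the DNA. Removal is preceded by ubiquitination of the histones H2A and H2B and by a wave of histone H4 acetylation, which loosens nucleosomes and is read by the bromodomain protein BRDT. RNF8 and PHF7 are ubiquitin ligases of this phase, CHD5 is a nucleosome remodeller, and TIP60 (the product of Kat5) and MOF (the product of Kat8) are acetyltransferases. EPC1 and EP400 are subunits of the NuA4 complex that holds TIP60, KDM3A is a histone H3 demethylase needed for transition protein and protamine transcription, and CDYL is a chromodomain protein of testis chromatin.

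Each library held 3629929 to 4490411 reads assigned to genes, with medians of 3677447 for Prm2+/+, 4306705 for Prm2+/- and 3975182 for Prm2-/-. Values are normalized counts, in which the reads of each gene were divided by a size factor of the library. Summed counts of 5 elongating spermatid markers ran from 195000 to 217000 and those of 5 spermatocyte markers from 2350 to 3450, while 4 markers of epididymal epithelium summed to 0 to 9.5 with 2 of the 4 at 0. Prm2 itself read 29760, 29720 and 39660 in Prm2+/+, 30170, 31010 and 34490 in Prm2+/-, and 34660, 36000 and 42770 in Prm2-/-. These 3′ tags of Prm2 do not check the genotype labels, because the place of the edit relative to them is not given in the sources used here. Replicate 3 of Prm2+/+ stood apart from the other libraries: its log2 values deviated from the genotype mean with an SD of 0.83 over all tested rows, against 0.51 to 0.65 in the other libraries. The LFCs of the members against Prm2+/+ are therefore given with and without it, as are those of the named list genes that it moved by over 1.5 times.

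None of the 7 tested members was called between any pair of genotypes. A call required an adjusted p under 0.05 in limma over all 14893 rows and a log2 fold change (LFC) beyond 0.5. Between Prm2-/- and Prm2+/+ 0 of 7 members passed, where 0.181% of all rows did. Between Prm2+/- and Prm2+/+ the count was 0 of 7 against 0.0806% of all rows, and between Prm2-/- and Prm2+/- it was 0 of 7 against 0.175%. At an unadjusted p under 0.05, limma, edgeR and DESeq2 each found 1, 1 and 0 of the 7 in these comparisons, where limma found 7.33%, 4.24% and 5.44% of all rows. In all 3 tools the former was Phf7, between Prm2-/- and Prm2+/+, and the latter Kdm3a, between Prm2+/- and Prm2+/+. The median LFC of the 7 members was -0.13 for Prm2-/- against Prm2+/+, beside 0.02 over all tested rows, and -0.066 beside -0.0078 when replicate 3 of Prm2+/+ was left out. It was -0.145 for Prm2+/- against Prm2+/+ beside 0.01, and 0.05 for Prm2-/- against Prm2+/- beside -0.01.

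**Figure D1:**
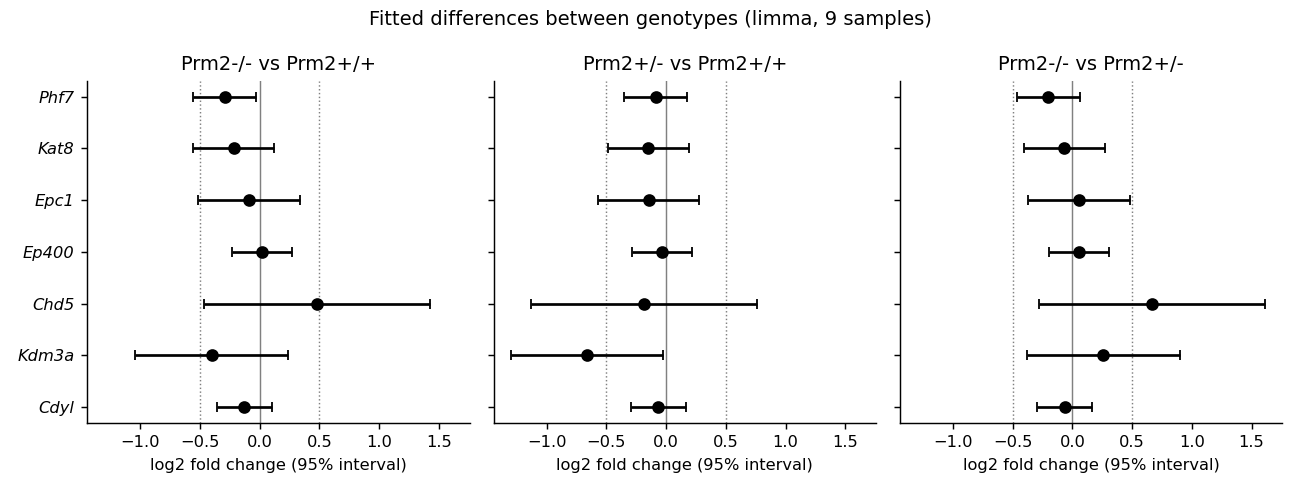
LFC of the 7 tested members (points) with 95% intervals (bars) from limma over 9 samples, for the 3 comparisons of genotypes; the dotted lines mark an LFC of 0.5 in either direction. The intervals of Ep400 and Cdyl are the narrowest and those of Chd5 and Kdm3a the widest, and no member was called.

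The promoters of the 3 members whose genotypes separated without overlap in at least 1 comparison, described below, are shown from 250 bases before to 50 bases after the RefSeq start (GRCm38.p6), read 5′ to 3′ on the strand of the gene. They lie at chr14:31251266-31251565 (minus strand, Phf7), chr4:152338401-152338700 (plus strand, Chd5) and chr6:71632868-71633167 (minus strand, Kdm3a). Capitals mark, on either strand, the TGACG core of the cyclic AMP response element, the CCAAT box and the E-box CACGTG.
Phf7: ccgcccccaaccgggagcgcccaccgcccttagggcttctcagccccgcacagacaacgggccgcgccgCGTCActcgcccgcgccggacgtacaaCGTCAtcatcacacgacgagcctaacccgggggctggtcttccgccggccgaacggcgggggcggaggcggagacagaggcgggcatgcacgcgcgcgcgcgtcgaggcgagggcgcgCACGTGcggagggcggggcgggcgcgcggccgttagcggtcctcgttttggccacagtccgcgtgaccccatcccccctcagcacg
Chd5: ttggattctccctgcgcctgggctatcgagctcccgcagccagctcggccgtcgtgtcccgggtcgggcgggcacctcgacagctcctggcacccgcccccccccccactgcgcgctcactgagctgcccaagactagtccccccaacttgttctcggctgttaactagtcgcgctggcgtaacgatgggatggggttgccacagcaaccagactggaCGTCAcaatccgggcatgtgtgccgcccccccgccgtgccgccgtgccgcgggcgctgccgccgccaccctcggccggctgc
Kdm3a: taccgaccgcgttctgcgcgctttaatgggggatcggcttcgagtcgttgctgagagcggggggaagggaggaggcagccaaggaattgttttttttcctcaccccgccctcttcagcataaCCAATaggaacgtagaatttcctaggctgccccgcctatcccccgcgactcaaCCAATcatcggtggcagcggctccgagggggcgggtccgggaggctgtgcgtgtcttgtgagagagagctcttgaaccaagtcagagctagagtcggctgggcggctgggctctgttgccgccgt
Phf7 held TGACG cores 181 and 154 bases and an E-box 36 bases before its start, Chd5 a core 32 bases before, and Kdm3a CCAAT boxes 128 and 75 bases before. RefSeq windows were matched for 8 of the 9 names, all but Epc1. The core was in 5 of these 8 and in 21.02% of 27018 RefSeq promoters of the same length, and its full palindrome TGACGTCA was in 0 of 8 and in 1.88% of all. The GC box GGGCGG was in 7 of 8 members and 35.9% of promoters, CCAAT in 4 of 8 and 37.9%, the E-box in 2 of 8 and 7.24%, and TATAAA in 0 of 8 and 14.2%. These matches of letters were searched on both strands and are no evidence of binding. The Phf7 window also covers the start of Bap1, a gene for a histone H2A deubiquitinase that is read in the opposite direction from 132 bases away.

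Phf7, a PHD and RING finger ubiquitin ligase for histone H2A (chromosome 14, 31237689 to 31251317, minus strand, GRCm38), gave the highest level of the set. Its normalized counts were 6641, 6478 and 8515 in Prm2+/+, 6573, 6431 and 7228 in Prm2+/-, and 6042, 6184 and 5355 in Prm2-/-. All Prm2-/- libraries lay below all 6 others, while the Prm2+/+ and Prm2+/- libraries overlapped. Means were 7211 ± 1132, 6744 ± 425 and 5860 ± 444 (SD, n = 3 each). For Prm2-/- against Prm2+/+ the LFC was -0.29 with an SE of 0.11, a 95% interval of -0.55 to -0.027 and an unadjusted limma p of 0.0344. After adjustment over all rows the p was 0.649, so the difference was not called. Non-overlap in this direction was found in 7.1% of all rows for Prm2-/- against Prm2+/+ and in 7.25% for Prm2-/- against Prm2+/-. Phf7 had 5071 to 8180 reads per library, a depth at which counting error alone gives a coefficient of variation of 1.22%. Without that wildtype library with the highest count, replicate 3, the LFC was -0.17.

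The comparison of Prm2-/- with the other 2 genotypes together was added after these values were seen. In it Phf7 had an LFC of -0.25 (SE 0.099, 95% interval -0.48 to -0.019, adjusted limma p 0.708), and 0 of 7 members were called against 0.195% of all rows. Of all rows, 2.2% had all Prm2-/- libraries below the other 6 and 2.37% had them above. Phf7 was the member in the first class and no member was in the second.

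Rnf8, a ubiquitin ligase of H2A and H2B (chromosome 17, 29614790 to 29644991, plus strand), was not analysed here. The annotation also holds a readthrough gene, Gm28043, that spans Rnf8 and its neighbour Cmtr1, a gene for an mRNA cap methyltransferase. Cmtr1, chosen after its values were seen, read 165.3, 180 and 208.8 in Prm2+/+, 148.3, 220.1 and 55.67 in Prm2+/-, and 270.8, 334.9 and 273.5 in Prm2-/-. Its Prm2-/- libraries lay above all others, as in 2.37% of all rows, with an LFC against Prm2+/+ of 0.66 and an adjusted limma p of 0.75. Bap1, the neighbour of Phf7 and also chosen after its values were seen, read 192.8 in replicate 1 of Prm2+/- and 210.1 in replicate 1 of Prm2-/-, and 8.836 to 28.93 in the other 7 libraries.

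Chd5, a chromodomain helicase that remodels nucleosomes in spermatids (chromosome 4, 152338651 to 152390194, plus strand), had the largest SD of log2 values within genotypes of the 7 tested members. It gave 570.1, 619.4 and 392.3 in Prm2+/+, 682.2, 633 and 219.1 in Prm2+/-, and 652, 729.6 and 795.1 in Prm2-/-. The Prm2-/- libraries lay above all Prm2+/+ libraries but overlapped Prm2+/-, and replicate 3 was the lowest library of both Prm2+/+ and Prm2+/-. Means were 527 ± 119.5, 511 ± 254 and 726 ± 71.6 (SD, n = 3 each). The LFC for Prm2-/- against Prm2+/+ was 0.48 (SE 0.41, 95% interval -0.46 to 1.43, adjusted limma p 0.769). Non-overlap with Prm2-/- higher was seen in 6.92% of all rows in this comparison. Leaving out the third wildtype library gave 0.28. Against Prm2+/- it was 0.66 (adjusted limma p 0.976), and 0.14 when replicate 3 of Prm2+/- was dropped. In heterozygotes against wildtypes it was -0.18 (adjusted limma p 0.931), and 0.34 without that library, so the sign of the heterozygote difference rested on 1 sample.

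Chd5 had 248 to 753 reads per library, for which counting error alone gives a coefficient of variation of 4.10%, and the coefficient over the 9 separate animals was 30.3%, next to the 36.4% of Kdm3a. Its SD of log2 values within genotypes was 0.57, beside a median of 0.30 over all tested rows, and was larger than that of 93.4% of the 500 rows nearest in level. For the other 6 members this share lay between 32.2% (Ep400) and 59.6% (Kdm3a).

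**Figure D2:**
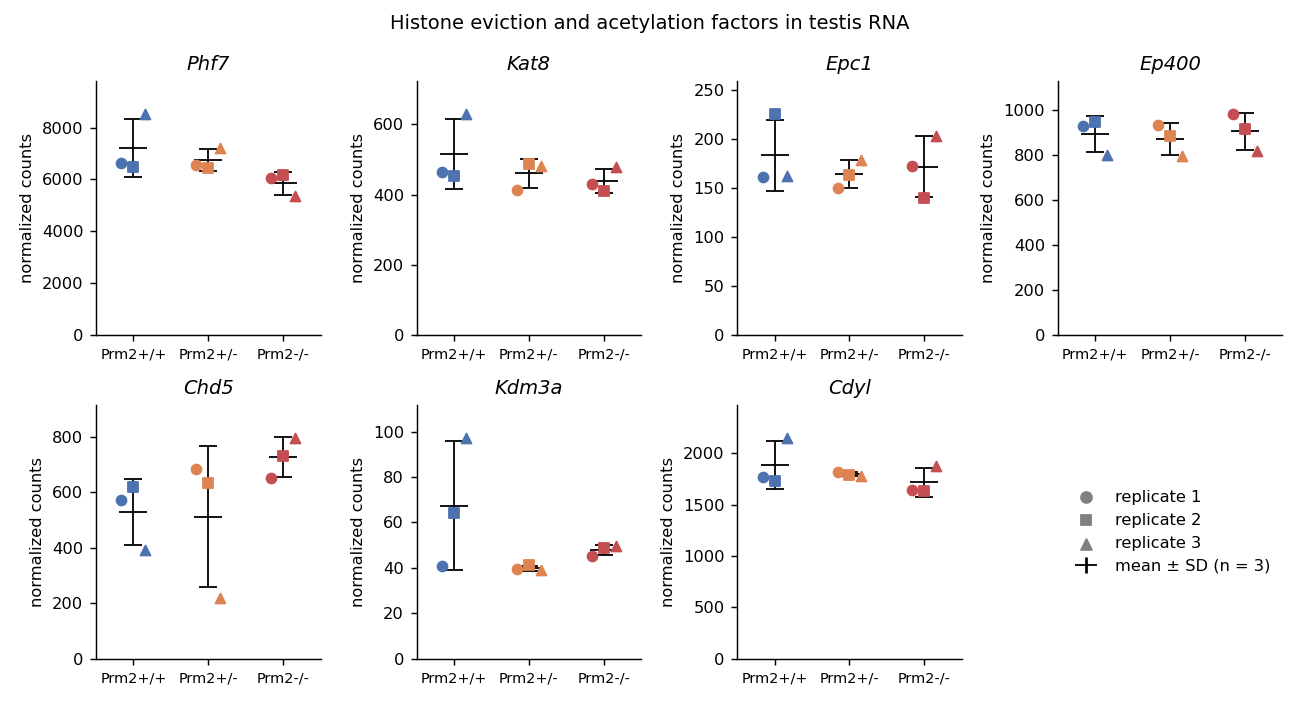
Normalized counts (y axis, from 0) of the 7 tested members in each library, by genotype (x axis); circles, squares and triangles are replicates 1, 2 and 3, and bars give the mean ± SD (n = 3). Phf7 is lower in the 3 Prm2-/- libraries than in the other 6, and replicate 3 of Prm2+/- gives the lowest Chd5 value at 219.1.

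Kat5 encodes TIP60, the catalytic acetyltransferase of NuA4 (chromosome 19, 5603014 to 5610237, minus strand). Its row held 0 reads in 8 libraries and 4 reads, or 3.622 normalized counts, in replicate 1 of Prm2-/-. The Kat5 gene overlaps Rnaseh2c, which runs on the opposite strand and encodes a ribonuclease subunit, by 4006 bp, and the 3′ end of Kat5, where this assay places its tags, lies inside that overlap. Rnaseh2c, chosen after its values were seen, read 395.3, 367.6 and 456.3 in Prm2+/+, 335.1, 368.1 and 276.6 in Prm2+/-, and 377.6, 408.9 and 364.3 in Prm2-/-. Whether reads of Kat5 were assigned to Rnaseh2c was not tested, so the row of Kat5 gives no level for this gene and no comparison.

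Kat8, the gene for the acetyltransferase MOF (chromosome 7, 127912516 to 127925837, plus strand), gave 462.8, 453.3 and 628.7 in Prm2+/+, 412.3, 486 and 482.5 in Prm2+/-, and 429.3, 408.9 and 477.3 in Prm2-/-. Replicate 3 of Prm2+/+ was the highest library, and the 3 genotypes overlapped. Means were 515 ± 98.7, 460 ± 41.6 and 438.5 ± 35.1 (SD, n = 3 each). The LFC for Prm2-/- against Prm2+/+ was -0.22 (SE 0.15, 95% interval -0.56 to 0.12, adjusted limma p 0.75), and -0.066 without replicate 3 of Prm2+/+. Kat8 also overlaps Prss8 on the opposite strand, and whether the counting used strand is not given in the sources used here.

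Ep400, the SWI/SNF-type helicase of the NuA4 complex (chromosome 5, 110664373 to 110770717, minus strand), had the smallest coefficient of variation of the 7 tested members over the 9 libraries. It gave 930.3, 949.5 and 801.1 in Prm2+/+, 933.3, 885.1 and 795.3 in Prm2+/-, and 982.6, 916.3 and 819.4 in Prm2-/-. The genotypes overlapped throughout, and replicate 3 was the lowest of each. The LFC for Prm2-/- against Prm2+/+ was 0.02 (SE 0.11, 95% interval -0.23 to 0.27, adjusted limma p 0.977), and -0.057 without replicate 3 of Prm2+/+. That coefficient was 7.76%, beside 3.32% from counting error alone.

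Epc1, the scaffold subunit enhancer of polycomb 1 (chromosome 18, 6435951 to 6516108, minus strand), gave 161.5, 225 and 162.4 in Prm2+/+, 150.3, 162.6 and 178.5 in Prm2+/-, and 172.1, 140 and 202.7 in Prm2-/-. These groups overlapped, and the 2 highest libraries were replicate 2 of Prm2+/+ and replicate 3 of Prm2-/-. The LFC for Prm2-/- against Prm2+/+ was -0.09 (SE 0.18, 95% interval -0.51 to 0.33, adjusted limma p 0.908), and -0.17 without replicate 3 of Prm2+/+. With 138 to 210 reads per library, counting error alone gives a coefficient of variation of 7.55%.

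Kdm3a, the demethylase that removes methyl groups from lysine 9 of histone H3 (chromosome 6, 71588972 to 71632990, minus strand), was the lowest tested member. It gave 40.86, 64.3 and 97.24 in Prm2+/+, 39.55, 41.11 and 38.88 in Prm2+/-, and 45.28, 48.71 and 49.63 in Prm2-/-. The Prm2+/+ libraries were spread widely and overlapped both other genotypes, and all Prm2-/- libraries lay above all Prm2+/- libraries. Means were 67.5 ± 28.3, 39.8 ± 1.14 and 47.9 ± 2.29 (SD, n = 3 each). The LFC for Prm2+/- against Prm2+/+ was -0.66 (SE 0.28, 95% interval -1.30 to -0.022), with an unadjusted limma p of 0.0443 and an adjusted p of 0.842. Leaving out replicate 3 of Prm2+/+ gave -0.36, and leaving out replicate 1, the lowest of that genotype, gave -0.97 (adjusted limma p 0.321). For Prm2-/- against Prm2+/+ the LFC was -0.40 (SE 0.28, 95% interval -1.04 to 0.24, adjusted limma p 0.751), which became -0.098 without replicate 3 and -0.71 without replicate 1 of Prm2+/+ (adjusted limma p 0.482). Prm2-/- exceeded Prm2+/- by an LFC of 0.26, smaller than its SE of 0.28 (adjusted limma p 0.997). Such non-overlap with Prm2-/- higher was shown by 7.47% of all rows. At 40 to 88 reads per library, counting error alone gives a coefficient of variation of 13.9%, against 36.4% over the 9 libraries. By genotype the coefficient was 42.0% in Prm2+/+, 2.87% in Prm2+/- and 4.79% in Prm2-/-, so only Prm2+/+ exceeded that counting error.

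Cdyl, the gene for a chromodomain protein (chromosome 13, 35659833 to 35874063, plus strand), gave 1775, 1734 and 2152 in Prm2+/+, 1818, 1793 and 1778 in Prm2+/-, and 1646, 1631 and 1882 in Prm2-/-. Replicate 3 was the highest library of Prm2+/+ and of Prm2-/-, and the genotypes overlapped. The LFC for Prm2-/- against Prm2+/+ was -0.13 (SE 0.10, 95% interval -0.36 to 0.10, adjusted limma p 0.755), and -0.03 without replicate 3 of Prm2+/+. The interval of Cdyl, like that of Ep400, excluded an LFC of 0.5 in either direction.

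Between heterozygous and wildtype testes all 7 members had a negative LFC, from -0.66 (Kdm3a) to -0.04 (Ep400), and the adjusted limma p ran from 0.842 to 0.949. For no member did these libraries fail to overlap, where 4.88% of all rows had all Prm2+/- libraries higher and 4.56% had them lower. All 7 values share the Prm2+/+ libraries, among them replicate 3. Without that library the LFC was 0.04 for Phf7, 0.0029 for Kat8 and 0.03 for Cdyl, so 3 of the 7 signs turned. It was -0.38 for Chd5, -0.22 for Epc1, -0.11 for Ep400 and -0.36 for Kdm3a.

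**Figure D3:**
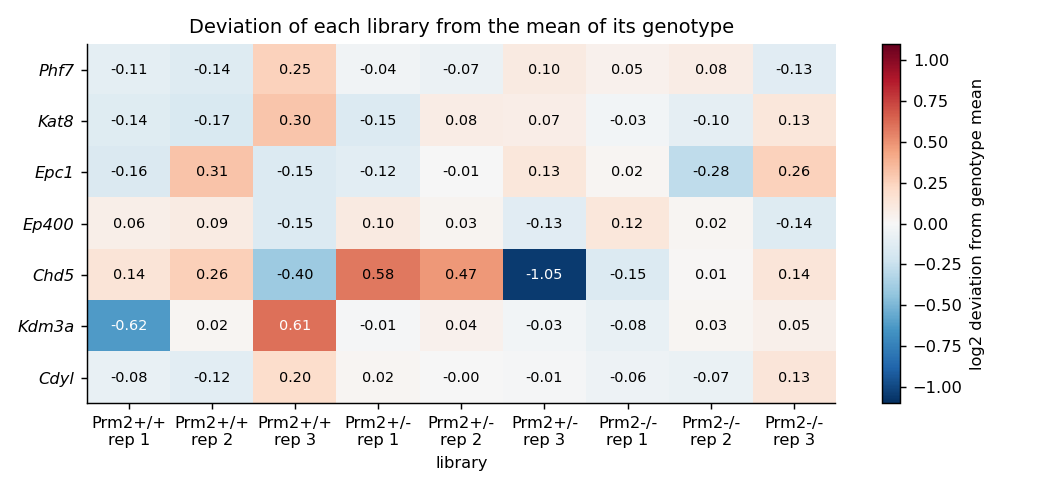
Deviation of each library (columns) from the mean of its genotype, in log2 units (colour and printed value), for the 7 tested members (rows). Replicate 3 of Prm2+/+ is above its genotype mean for Phf7, Kat8, Kdm3a and Cdyl and below it for Chd5, Epc1 and Ep400. Replicate 3 of Prm2+/- is 1.05 below for Chd5.

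Per kb of exonic length, the mean normalized count over the 9 libraries was 1250 for Phf7 (range 1013 to 1611), 410 for Cdyl (371 to 490) and 163 for Kat8 (141.5 to 217.5). These 3 ranges did not overlap. Ep400 followed at 63.7 (56.9 to 70.3), Chd5 at 61.4 (22.9 to 83.0) and Epc1 at 38.6 (31.3 to 50.3), where Chd5 overlapped both neighbours. Kdm3a was lowest at 6.29 (4.73 to 11.8). The assay reads 3′ ends, so a long transcript gives no more tags than a short one, and dividing by length lowers Ep400 and Chd5 against the shorter genes. Without that division Phf7 ranked between percentiles 99.7 and 99.8 of the tested rows in each library, Cdyl between 97.3 and 98.1, Ep400 between 93.2 and 94.9, Kat8 between 86.2 and 91.2, Chd5 between 77.3 and 93.3, Epc1 between 67.9 and 77.8, and Kdm3a between 37.5 and 62.8.

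Across the 9 libraries the members did not move as 1 block. As a description over 9 libraries that share genotypes and size factors, Pearson's r of log2 values was highest for Kat8 with Cdyl (0.881) and lowest for Kat8 with Ep400 (-0.708), and it was -0.701 for Chd5 with Phf7. These r include replicate 3 of Prm2+/+, which lay 0.30, 0.20 and 0.25 log2 units above its genotype mean for Kat8, Cdyl and Phf7. For Ep400 and Chd5 its deviations were -0.15 and -0.40, and r was not computed without it. The single gene whose pattern over the same 9 libraries was most like that of each member was Snhg9 for Phf7 (r 0.989), Capza3 for Cdyl (0.988), Slc39a9 for Chd5 (0.985) and Cul9 for Kat8 (0.979). It was Prrc1 for Ep400 (0.965), Abl1 for Kdm3a (0.946) and Nr2f2 for Epc1 (0.93). Each of these r is the maximum of a search over all tested rows, and how high such a maximum runs for other genes was not tested.

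The wider machinery of the exchange was followed in 8 lists of 75 related genes, of which 73 were tested, H2afb1 and Sirt6 having too few reads. Between Prm2-/- and Prm2+/+ 0 of 73 were called by limma, 38 had a positive and 35 a negative LFC, and the median LFC was 0.005, beside 0.02 over all rows. At an unadjusted p under 0.05 limma found 4 of the 73, or 5.48%, against 7.33% of all rows. It found 0 between Prm2+/- and Prm2+/+, against 4.24%, and 5 between Prm2-/- and Prm2+/-, against 5.44%. edgeR likewise called 0 of the list genes in each comparison, and DESeq2 called 1, 0 and 2 of them.

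The histone ubiquitination list held 12 genes, and 0 of 12 had an unadjusted p under 0.05 between Prm2-/- and Prm2+/+, with a median LFC of 0.11. Its smallest p values were those of Rnf20, a ligase for histone H2B (LFC 0.42, adjusted limma p 0.727), and Usp16, a histone H2A deubiquitinase (LFC -0.20, adjusted limma p 0.753). Among 15 other NuA4 subunits the median LFC was -0.05 and 0 had an unadjusted p under 0.05. Mbtd1, a malignant brain tumour domain subunit, read 488.4, 465.1 and 584.5 in Prm2+/+, 508.2, 504.2 and 509.8 in Prm2+/-, and 432.9, 142.1 and 387.5 in Prm2-/-. Its Prm2-/- libraries lay below all others, as in 2.2% of all rows, with replicate 2 far below. The LFC against Prm2+/+ was -0.82 (adjusted limma p 0.70). The acetyl reader Yeats4 had an LFC of -0.23 (adjusted limma p 0.719), which became -0.096 without replicate 3 of Prm2+/+. In the MSL and NSL complexes that hold MOF, 0 of 11 other subunits had an unadjusted p under 0.05, and the median LFC was 0.08. The 2 with the smallest p were the scaffold Msl1 (LFC -0.17, adjusted limma p 0.746) and Wdr5 (LFC 0.28, adjusted limma p 0.75). Without replicate 3 of Prm2+/+ these were -0.11 for Msl1 and 0.066 for Wdr5.

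Of 9 other acetyltransferases 1 had an unadjusted p under 0.05. Kat2a, the gene for GCN5, read 75.07, 79.3 and 77.35 in Prm2+/+, 69.2, 71.25 and 70.69 in Prm2+/-, and 48, 67.99 and 60.19 in Prm2-/-. Its 3 genotypes did not overlap, with Prm2-/- lowest (LFC -0.40, SE 0.14, adjusted limma p 0.611). For Prm2+/- against Prm2+/+ its LFC was -0.13, smaller than its SE of 0.14. At 53 to 80 reads per library, counting error alone gives a coefficient of variation of 11.97%, against 13.98% over the 9 libraries. Of all rows, 7.1% had Prm2-/- wholly below Prm2+/+, 7.25% had it below Prm2+/-, and 4.56% had Prm2+/- below Prm2+/+. The share with all 3 genotypes apart was not computed. Hat1, the acetyltransferase of newly made histone H4, read 162.5, 186.5 and 93.92 in Prm2+/+ and 182, 193.8 and 189 in Prm2-/-. Its LFC of 0.41 (adjusted limma p 0.73) was 0.11 without replicate 3 of Prm2+/+.

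Of 8 other CHD remodellers 1 had an unadjusted p under 0.05 between Prm2-/- and Prm2+/+. Chd3, a helicase of the NuRD deacetylase complex, read 200.5, 195 and 248.6 in Prm2+/+, 183.9, 175.4 and 179.4 in Prm2+/-, and 316.1, 262.8 and 339 in Prm2-/-. Its Prm2-/- libraries lay above the other 6, as in 2.37% of all rows. The LFC was 0.51 against Prm2+/+ (SE 0.14, adjusted limma p 0.468) and 0.76 against Prm2+/- (SE 0.14, adjusted limma p 0.219), and DESeq2 called the latter with an adjusted p of 0.0014. Chd6 had an LFC of 0.34 (adjusted limma p 0.746).

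Among 5 relatives of Kdm3a and Cdyl, Ehmt2, the gene for the histone H3 methyltransferase G9a, read 35.16, 26.79 and 5.525 in Prm2+/+, 23.73, 12.79 and 22.09 in Prm2+/-, and 377.6, 386.6 and 25.34 in Prm2-/-. Only 2 of the 3 Prm2-/- libraries were high, and the third lay within the range of Prm2+/+. The LFC against Prm2+/+ was 3.07 (SE 1.09, adjusted limma p 0.604), and DESeq2 called it with an adjusted p of 0.0207. Jmjd1c, a demethylase relative of Kdm3a, had an LFC of -0.19 (adjusted limma p 0.777).

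For readers and disposal of acetylated histones 0 of 6 tested genes had an unadjusted p under 0.05, and the smallest p values were those of the deacetylases Sirt1 (LFC 0.26, adjusted limma p 0.75) and Hdac1 (LFC -0.11, adjusted limma p 0.776). Without replicate 3 of Prm2+/+ these were 0.41 for Sirt1 and -0.19 for Hdac1. Of the 7 tested genes in the list named for proteins loaded at the exchange, 1 had an unadjusted limma p under 0.05. Tnp1, the gene for transition protein 1, read 71440, 66170 and 72960 in Prm2+/+, 65180, 69000 and 70890 in Prm2+/-, and 62520, 65320 and 65670 in Prm2-/-. Its Prm2-/- libraries lay below those of Prm2+/+, as in 7.1% of all rows, but overlapped Prm2+/- (LFC against Prm2+/+ -0.12, adjusted limma p 0.66). Prm3, which is in this list by its name, gave 4958, 5054 and 6846 in Prm2+/+ and 4583, 4762 and 4655 in Prm2-/- (LFC -0.25, adjusted limma p 0.71). Its LFC was -0.10 without replicate 3 of Prm2+/+, and whether its protein is loaded on DNA was not examined.

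**Figure D4:**
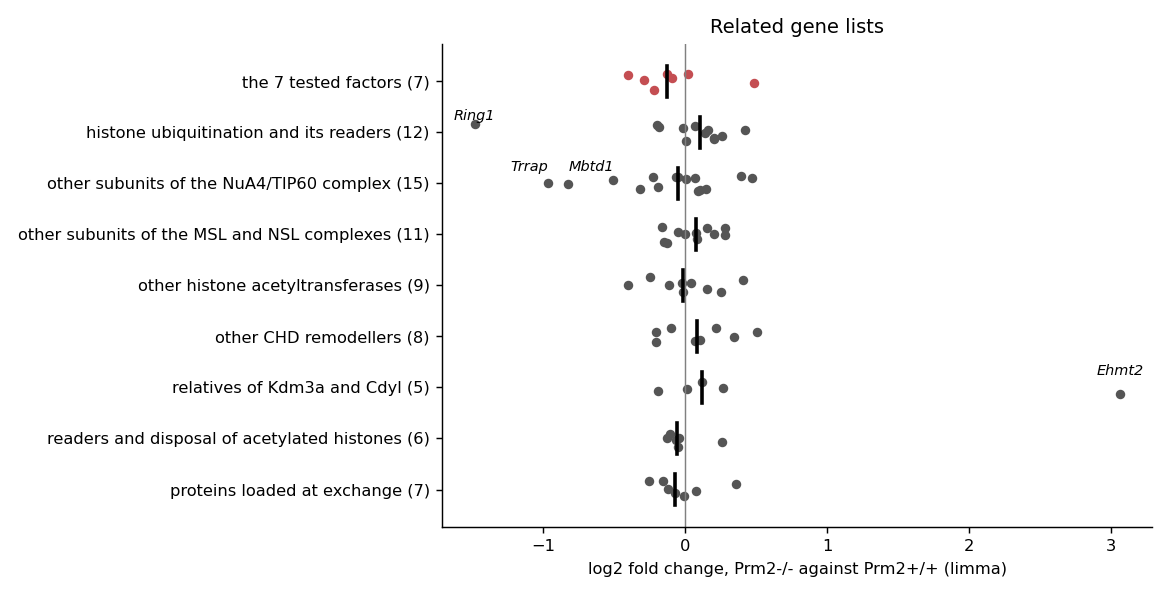
LFC for Prm2-/- against Prm2+/+ (x axis, log2 scale, limma) of the 7 tested members and of 8 lists of related genes (rows, number tested in parentheses); points are genes and black bars the list medians. Medians run from -0.13 for the members to 0.12 for the relatives of Kdm3a and Cdyl, whose point far to the right is Ehmt2 at 3.07.

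Some rows of this table take 2 separate levels across libraries, with a gap of more than 2 log2 units between neighbouring libraries that is also over 1.5 times the range of the libraries on either side of it. This was the case for 1791 of 14893 tested rows and for 4 of 73 list genes, and for 0 of the 7 members. The 4, named here after their values were seen, were Trrap, Chd4, Rnf40 and Ring1, each with 1 library below the gap. Trrap, a NuA4 scaffold, read 13.58 in replicate 1 of Prm2-/- and 108.8 to 149.9 in the other libraries. Rnf40 read 48.41 in replicate 2 of Prm2+/-, 233.3 in replicate 3 of Prm2+/- and 387.5 in replicate 3 of Prm2-/-. In its remaining libraries it read 555.6 to 655.2. Ring1 was at 0 in replicate 3 of Prm2-/-. Ehmt2 had a gap of 3.39 log2 units, but its libraries below the gap spanned 2.47, too wide to count as a level.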

How the data were processed

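Total RNA of whole testes was sequenced from 3' ends (QuantSeq, 50 bp reads) in 9 libraries. Per the labels and the study's methods, the authors trimmed reads with Trim Galore 0.4.5 and aligned them to GRCm38 with HISAT2 2.1. They quantified transcripts with StringTie 1.3.3, prepared gene counts with a tool of that package and removed pseudogenes. What is called reads of a gene here are these gene counts. The deposited values, a signal per gene, are counts divided by 1 DESeq2 size factor per library (normalized counts). The strand setting of the counting is not given in the sources used here.

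Whole reads were recovered in 100% of values (tolerance 0.001 of a read; in replicate 1 of Prm2+/- the size factor is near 1, which makes this a weaker sign), and gene positions were taken from GENCODE M21, which matched 38520 rows. Rows were filtered with filterByExpr (edgeR 4.0.16) and log2(normalized count + 1) was fitted in limma 3.58.1 (R 4.3.3) with genotype as the only term. Adjusted p values are Benjamini-Hochberg values over all 14893 rows tested, and LFC is on that log2 scale, which understates the change of low genes. The edgeR quasi-likelihood test and DESeq2 1.42.0 were run on the recovered reads as alternatives. Between Prm2-/- and Prm2+/+ the calls over all rows numbered 27 in limma, 24 in edgeR and 140 in DESeq2. Other alternatives were TMM scaling, pseudocounts of 0.5 and 5, other filters, 6 samples only, a replicate block, summed rows of 1 symbol and leaving out each library.

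The labels number the replicates 1 to 3, the study calls them biological replicates, and none of the 9 pairs of libraries within a genotype agreed within sampling noise. Shared replicate numbers did not pair the samples. The members and lists were chosen with earlier results of these data known. Named beside the members were Prm2, any list gene called by limma (0 genes), the 2 genes of each list with the smallest unadjusted p between Prm2-/- and Prm2+/+, and the tested gene most like each member. Outside this rule, the neighbours Rnaseh2c, Cmtr1 and Bap1 and the list genes Trrap, Chd4, Rnf40 and Ring1 were named after their values were seen. The values of list genes without replicate 3 of Prm2+/+ were likewise added then. Reads are not independent molecules and the gene counts are StringTie estimates, so counting error is a guide and no strict limit of the technical error. Some spreads within a genotype lay below it, such as 2.87% for Kdm3a in Prm2+/- against 13.9%.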

Additional observations from a re-analysis of the deposited data

How the results depend on the processing

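None of the 7 members was called under any of the 20 other settings run. Of 525 LFC values under these settings, 504 kept the sign of the reported value and 21 had the opposite sign, all of the latter in fits that left out 1 library. Part of the 504 could not turn, because the fit leaves a member's LFC unchanged under some settings. These were other filters, 6 samples only, a replicate block, summed rows of 1 symbol, and leaving out a library of a genotype not compared. With DESeq2 on the recovered reads the list genes called numbered 1 between Prm2-/- and Prm2+/+, 2 between Prm2-/- and Prm2+/- and 2 between Prm2-/- and the other 2 genotypes, against 0 in limma, and the cause was not tested. Over all rows DESeq2 called 140, 66 and 113 where limma called 27, 12 and 26 in the comparisons of Prm2-/- with Prm2+/+, Prm2+/- with Prm2+/+ and Prm2-/- with Prm2+/-.

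When single libraries were left out, the LFC for Prm2-/- against Prm2+/+ ranged from -0.22 to 0.067 for Epc1 and from -0.057 to 0.0905 for Ep400. For Prm2+/- against Prm2+/+ it ranged from -0.47 to 0.34 for Chd5, from -0.16 to 0.038 for Phf7, from -0.23 to 0.0029 for Kat8, from -0.23 to 0.012 for Epc1, from -0.11 to 0.0285 for Ep400 and from -0.12 to 0.034 for Cdyl. For Prm2-/- against Prm2+/- it ranged from -0.073 to 0.19 for Epc1 and from -0.0084 to 0.13 for Ep400. For Prm2-/- against the other 2 genotypes it ranged from -0.15 to 0.12 for Epc1, from -0.0225 to 0.11 for Ep400 and from -0.23 to 0.0799 for Kdm3a. The Chd5 sign turned without replicate 3 of Prm2+/-, and the Phf7, Kat8 and Cdyl signs without replicate 3 of Prm2+/+.

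Same-numbered samples did not deviate together (correlations of -0.0365 to 0.0423 over 9 pairs). With a replicate block 0 members were called, and Phf7 had an LFC of -0.29 (adjusted limma p 0.676) between Prm2-/- and Prm2+/+.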
